A study of Mus musculus with 6 samples.

Results

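Accessible chromatin at 7 genes that build and mark the neural progenitor cell was compared between progenitors overexpressing Nr6a1 and progenitors carrying a control virus. The genes were Nes, Vim, Prom1, Cdh2, Msi1, Msi2 and Rfx4. Their intervals were those of the deposited consensus table whose midpoint lay inside the gene body, or whose nearest protein-coding gene end belonged to 1 of the 7 genes and lay within 300 kb. This gave 82 of 52223 intervals, with 3 at Nes, 3 at Vim, 2 at Prom1, 17 at Cdh2, 11 at Msi1, 36 at Msi2 and 10 at Rfx4. That rule uses position alone. The assay was ATAC-seq, in which the Tn5 transposase cuts open DNA and tags it for sequencing, so a higher fragment count in an interval means more accessible chromatin there, and transcripts were not measured.

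The 2 groups were day 9 neural progenitors differentiated from mouse embryonic stem cells. The Nr6a1OE group (3 libraries, genotype label Nr6a1+overexpression) received on day 5 a lentivirus carrying Nr6a1 joined by a 2A peptide to the fluorescent protein mScarlet3. The mScarlet group (3 libraries, genotype label Control) received a lentivirus carrying mScarlet3 alone. Both groups grew in N2B27 medium and were given the same factors in turn. They were plated with 10 ng/ml bFGF, and on day 2 moved to 5 µM CHIR99021, which inhibits GSK3. On day 3 they were given retinoic acid at 100 nM and Smoothened Agonist (SAG) at 10 nM, and from day 5 SAG was kept at that dose without retinoic acid. Fluorescent cells were sorted 4 days after transduction, and 50000 cells entered each library. The promoter driving the virus, the number of cell lines and whether libraries of a group came from separate cultures are not given in the labels, and a p-value here rests on variation among libraries that may be technical only.

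Neural progenitors are elongated cells held in an epithelium around the lumen of the neural tube. Nestin and vimentin co-assemble into their intermediate filaments, N-cadherin joins neighbouring cells at apical junctions, and prominin-1 sits in the apical membrane. The Musashi proteins bind RNA and restrain translation of targets such as Numb, and Rfx4 is a winged-helix transcription factor needed for cilium formation and dorsal midline patterning in the mouse brain. Nr6a1 (germ cell nuclear factor) belongs to the nuclear receptors without a known ligand, acts mainly as a repressor and is needed for trunk development in mouse embryos.

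The libraries held 7035135 to 7923767 fragments in intervals in Nr6a1OE and 6857763 to 8030029 in mScarlet. An interval was called when the adjusted p of edgeR's quasi-likelihood test over all 51637 tested intervals was under 0.05. Of the markers of neural progenitors with a RefSeq start in the sequence table, 6 of 6 had an interval over that start (Sox1, Sox2, Pax6, Hes5, Olig2 and Nkx6-1), with a summed 541 to 556 CPM (the count scaled for library size) in Nr6a1OE and 537 to 564 CPM in mScarlet. No interval covered the starts of the pluripotency genes Pou5f1, Nanog and Zfp42. At the starts of post-mitotic neuron markers, 5 of 6 of which were open, the sum was 237 to 254 CPM in Nr6a1OE and 250 to 262 CPM in mScarlet. Nr6a1 itself held 86.2 ± 2.15 CPM over its start in Nr6a1OE and 82.5 ± 4.20 CPM in mScarlet (SD, n = 3 each, edgeR adjusted p = 0.651), a measure that does not read the transcript of the virus. Of its 8 intervals 1 was called, higher inside the gene at 38822994 to 38825616, with 64.6 ± 2.66 CPM in Nr6a1OE and 52.4 ± 3.79 CPM in mScarlet (SD, n = 3 each, log2 difference 0.30, edgeR adjusted p = 1.22e-04, DESeq2 adjusted p = 0.0961). The fragments summed over the 8 intervals were also higher in Nr6a1OE (0.13, edgeR adjusted p = 0.0127), a call lost without Nr6a1OE 1, Nr6a1OE 3 or mScarlet 1 (highest edgeR adjusted p = 0.14).

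None of the 7 intervals over a start or gene end passed the test. Printed here are the 250 bases before the RefSeq start (GRCm38.p6, the coordinates of mm10) of Nes, of Vim and of Msi2, shown because each lies inside the strongly open start interval of its gene. Each is written 5′ to 3′ on the gene's strand, with matches to the CCAAT box (CCAAT), the GC box (GGGCGG) and the TATA box (TATAAA) on either strand in capitals.
Nes, chr3:87970843-87971092, plus strand: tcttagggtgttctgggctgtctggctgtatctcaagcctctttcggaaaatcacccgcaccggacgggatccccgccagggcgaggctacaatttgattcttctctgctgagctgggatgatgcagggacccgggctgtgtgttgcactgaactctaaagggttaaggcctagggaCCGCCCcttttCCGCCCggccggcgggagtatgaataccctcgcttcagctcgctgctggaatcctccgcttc
Vim, chr2:13574061-13574310, plus strand: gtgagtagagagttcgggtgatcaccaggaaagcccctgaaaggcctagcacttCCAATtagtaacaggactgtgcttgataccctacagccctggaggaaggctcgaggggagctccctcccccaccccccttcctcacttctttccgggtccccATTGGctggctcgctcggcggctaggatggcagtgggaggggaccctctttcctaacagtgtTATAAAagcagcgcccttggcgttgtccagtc
Msi2, chr11:88718278-88718527, minus strand: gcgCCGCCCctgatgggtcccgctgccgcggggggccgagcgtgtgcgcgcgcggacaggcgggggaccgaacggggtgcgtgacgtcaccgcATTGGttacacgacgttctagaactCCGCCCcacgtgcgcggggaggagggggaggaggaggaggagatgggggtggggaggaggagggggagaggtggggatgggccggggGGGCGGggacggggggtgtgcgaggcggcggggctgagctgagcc

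The Nes window held 2 GC boxes and no CCAAT or TATA match, the Vim window 2 CCAAT boxes and a TATA match 32 bases before the start, and the Msi2 window 3 GC boxes and 1 CCAAT box. Of 32851 such windows in the RefSeq table, 33.8% held CCAAT, 32.7% GGGCGG and 12.4% TATAAA. The G and C content was 58.8% for Nes, 58.4% for Vim and 75.6% for Msi2, against a median of 52.4% over all windows. The Msi2 window held 29 CpG dinucleotides, the Nes window 15 and the Vim window 8, against a median of 6. The extended half-site of NR5A and NR6A receptors (TCAAGGTCA) and the direct repeat of half-sites (AGGTCAAGGTCA), searched on both strands, were in 0 of the 9 windows that the table gave for 5 of the genes, and in 0.387% and 0.00609% of all windows. The shorter half-site AGGTCA, which both of these contain, lay in 1 of the 9, at the inner start of Rfx4, and in 14.0% of all windows. These are matches of letters and say nothing about binding.

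Of the 82 intervals, 81 passed the filter on low counts, and the remaining 1, at Cdh2, averaged 10.2 fragments. Accessibility fell in Nr6a1OE at 2 of 81 intervals, 1 inside Nes and 1 inside Cdh2, or 2.47% beside 1.26% of all tested intervals. It rose at 0 of 81, beside 0.469% of all tested intervals, and in either direction 1.73% of all tested intervals were called. DESeq2 called 1 lower and 0 higher, beside 97 lower and 3 higher over all intervals with the same tool. At an unadjusted edgeR p under 0.05, 2 of 81 were higher, beside 5.73% of all tested intervals, and 3 lower, beside 6.87%. The groups did not overlap at 7 of 81 intervals, or 8.64%, beside 16.6% of all tested intervals. Of these 3 were higher, beside 7.89%, and 4 lower, beside 8.73%. The median log2 fold change over the 81 was 0.029, beside a median of 0.004 over all tested intervals. It was above 0 at 44 and below 0 at 37, or 54.3% above, beside 50.8% of all tested intervals. At 72 of the 81, or 88.9%, the log2 fold change was within 0.3 of 0, beside 81.7% of all tested intervals. The 95% confidence interval lay within 0.5 of 0 at 48 of 81 intervals. It did so at 43 of the 48 intervals that averaged at least 50 fragments. The 33 intervals that averaged under 50 fragments could hide larger changes at this depth.

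**Figure D1:**
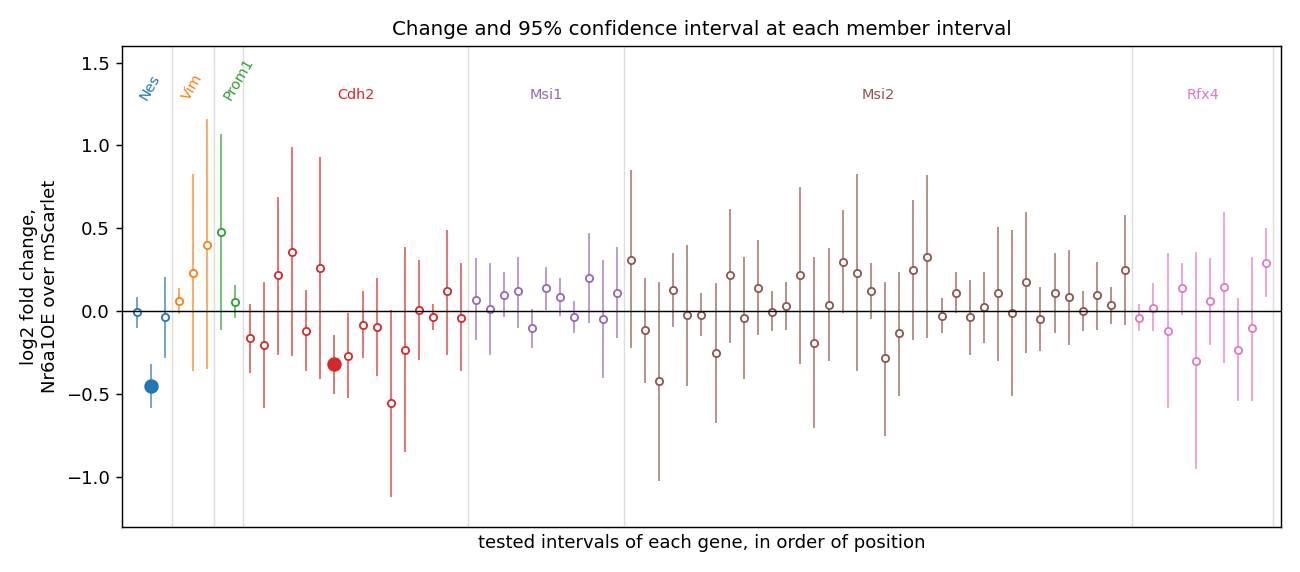
The vertical axis gives the log2 fold change of Nr6a1OE over mScarlet at each of the 81 tested intervals, grouped by gene and ordered by position, with 95% confidence intervals as bars; filled points passed the edgeR test. The 2 filled points, 1 in Nes at -0.45 and 1 in Cdh2 at -0.32, lie below 0, and the widest bars belong to intervals with few fragments.

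Nestin, an intermediate filament protein, marks dividing neural progenitors, and its gene (chromosome 3, 87971093 to 87980451) held an open start, an open inner interval and a weaker interval beyond its far end. The inner interval, chromosome 3, 87973781 to 87974814, was centred 3.2 kb downstream of the start. It held 37.5, 37.6 and 42.4 CPM in Nr6a1OE 1, 2 and 3, against 57.6, 54.9 and 49.0 CPM in mScarlet 1, 2 and 3. Every Nr6a1OE library was below every mScarlet library, the nearest being Nr6a1OE 3 and mScarlet 3. The means were 39.2 ± 2.80 CPM in Nr6a1OE and 53.8 ± 4.44 CPM in mScarlet (SD, n = 3 each). The fitted difference was -0.45 on the log2 scale, its standard error (SE) 0.066 and its edgeR adjusted p 9.35e-09. That is 26.8% less accessibility, and in a bulk assay fewer cells with the site open and less opening per cell cannot be told apart. By p the interval ranked 51 of the 652 lowered intervals of the genome, and by size of the fall 500, the median of those intervals being -0.68.

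No such difference was measured at the start of Nes. The interval over the start, 87970166 to 87972656, held 87.1, 89.4 and 87.7 CPM in Nr6a1OE 1, 2 and 3, against 83.7, 90.6 and 90.9 CPM in mScarlet 1, 2 and 3. The groups overlapped, and the log2 fold change was -0.006 with a 95% confidence interval of -0.10 to 0.089 (edgeR adjusted p = 0.977). The interval 2.6 kb beyond the far end of the gene averaged 12.4 CPM in Nr6a1OE and 12.7 CPM in mScarlet, a log2 fold change of -0.033. Dividing the raw count of the inner interval by that of the start in the same library removes any scaling between libraries. This ratio was 0.431, 0.420 and 0.483 in Nr6a1OE 1, 2 and 3, against 0.689, 0.606 and 0.538 in mScarlet 1, 2 and 3. All Nr6a1OE ratios lay below all mScarlet ratios, and the 2-sided exact permutation test gave p = 0.1, the smallest that 3 against 3 allows. The inner interval was picked for its call in the same libraries, so this is not independent support.

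The inner Nes interval was also the most open part of the gene per length, with 45 CPM per kb over all 6 libraries, above 92.9% of tested intervals, beside 35.4 CPM per kb at the start. A neural enhancer in the second intron of Nes is widely used to drive transgenes in progenitors. The gene table used here gives no exons, so an overlap of the interval with that intron was not tested. The Nes call was kept in each fit that left out 1 library (log2 fold change -0.52 to -0.40, edgeR adjusted p 2.42e-09 to 1.55e-04) and in DESeq2 (adjusted p = 0.00163). It was lost when the coefficient of variation between libraries was set to 10% in edgeR's likelihood ratio test (log2 fold change -0.46, edgeR adjusted p = 0.1). The estimated coefficient was 1.47%.

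**Figure D2:**
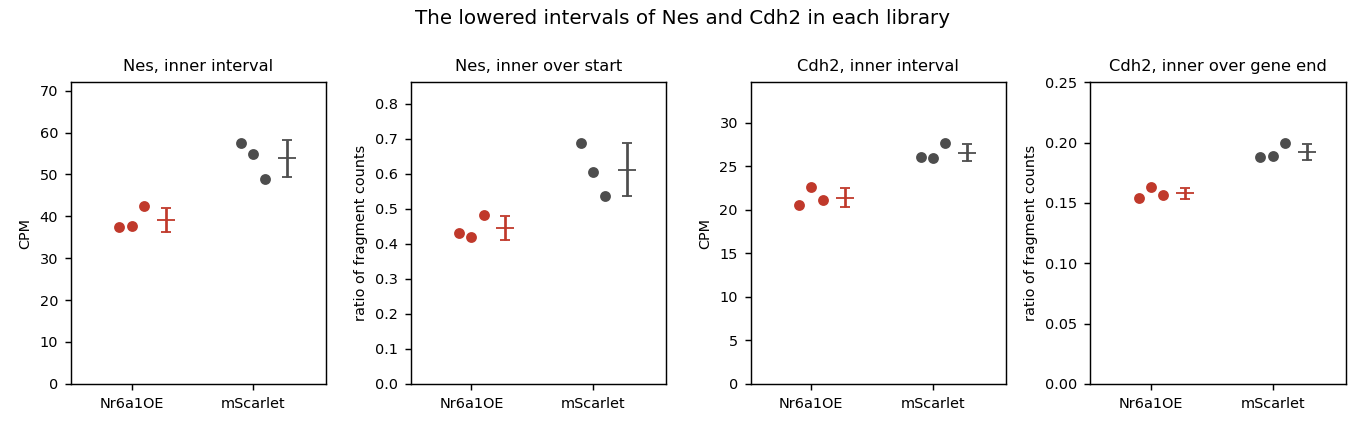
Points are libraries and bars are the mean ± SD of 3; 2 panels give CPM of the lowered inner intervals of Nes and Cdh2, and the others their raw fragment count divided by that of the interval over the Nes start or the Cdh2 gene end. In all 4 panels the Nr6a1OE libraries lie below the mScarlet libraries, for Nes at 37.5 to 42.4 CPM against 49.0 to 57.6 CPM.

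Vimentin is the filament partner of nestin in progenitors and is also made by mesenchymal cells and glia. Its gene (chromosome 2, 13574311 to 13582826) had its accessibility concentrated at the start, in an interval of 3166 bp. That interval held 134, 132 and 124 CPM in Nr6a1OE 1, 2 and 3, against 124, 131 and 118 CPM in mScarlet 1, 2 and 3. The groups overlapped, and the log2 fold change was 0.063 with a 95% confidence interval of -0.017 to 0.14 (edgeR adjusted p = 0.556). The other 2 Vim intervals lay beyond the far end of the gene, averaged under 3 CPM and had log2 fold changes of 0.23 and 0.40 that did not pass. A change like that of the inner Nes interval lay outside the confidence interval at the Vim start; the difference between the 2 genes was not itself tested.

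Prominin-1, a membrane protein of apical protrusions also known as CD133, had 2 intervals at its gene (chromosome 5, 43993621 to 44102047). The interval over the start held 81.3, 86.2 and 80.6 CPM in Nr6a1OE 1, 2 and 3, against 80.1, 80.1 and 77.8 CPM in mScarlet 1, 2 and 3. All Nr6a1OE libraries were above all mScarlet libraries by a small margin, but the difference of 0.059 on the log2 scale missed the threshold (95% confidence interval -0.040 to 0.16, edgeR adjusted p = 0.685). The interval 2.7 kb beyond the far end held 2.78 CPM in Nr6a1OE and 1.96 CPM in mScarlet on average, a log2 difference of 0.48 (edgeR adjusted p = 0.535). It rested on 17.5 fragments per library.

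N-cadherin, the adhesion molecule of the neuroepithelium, is encoded by Cdh2 (chromosome 18, 16588877 to 16809246). Its 17 intervals included 9 inside the gene. The strongest covered the gene end at 16809246 and held 133, 138 and 134 CPM in Nr6a1OE 1, 2 and 3, against 139, 137 and 138 CPM in mScarlet 1, 2 and 3, a log2 fold change of -0.032 (95% confidence interval -0.11 to 0.046, edgeR adjusted p = 0.808). An interval 81.7 kb inside the gene from its other end, 16669704 to 16671380, held 20.5, 22.6 and 21.1 CPM in Nr6a1OE 1, 2 and 3, against 26.1, 25.9 and 27.7 CPM in mScarlet 1, 2 and 3. The groups did not overlap, and the log2 difference was -0.32 (SE 0.091, edgeR adjusted p = 0.0341). The interval nearest to the other end of the gene, 16605371 to 16605919, held 2.00 ± 0.121 CPM in Nr6a1OE and 1.67 ± 0.638 CPM in mScarlet (SD, n = 3 each), and its edgeR adjusted p was 0.827.

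The Cdh2 call was weak. It was lost without Nr6a1OE 1, Nr6a1OE 3, mScarlet 1, mScarlet 2 or mScarlet 3 (edgeR adjusted p = 0.164, 0.134, 0.0870, 0.0555 and 0.197) and in DESeq2 (adjusted p = 0.816). Its raw count relative to the interval at the gene end was 0.154, 0.163 and 0.157 in Nr6a1OE 1, 2 and 3, against 0.188, 0.189 and 0.2 in mScarlet 1, 2 and 3 (2-sided exact permutation p = 0.1, the smallest possible). As at Nes, the interval was picked for its call, so the ratio is not independent support. The neighbouring interval at 16675240, which had the highest level per length of the Cdh2 intervals after that at the gene end, held 10.6 CPM in Nr6a1OE and 12.6 CPM in mScarlet, a log2 difference of -0.27 (edgeR adjusted p = 0.365). Over the 16 tested intervals, 11 were below 0 and 5 above, or 31.2% above, beside 50.8% of all tested intervals. Their median was -0.089, beside -0.014 over chromosome 18. Of the 16, 7 averaged under 50 fragments, and whether the intervals leaned lower as a set was not tested.

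**Figure D3:**
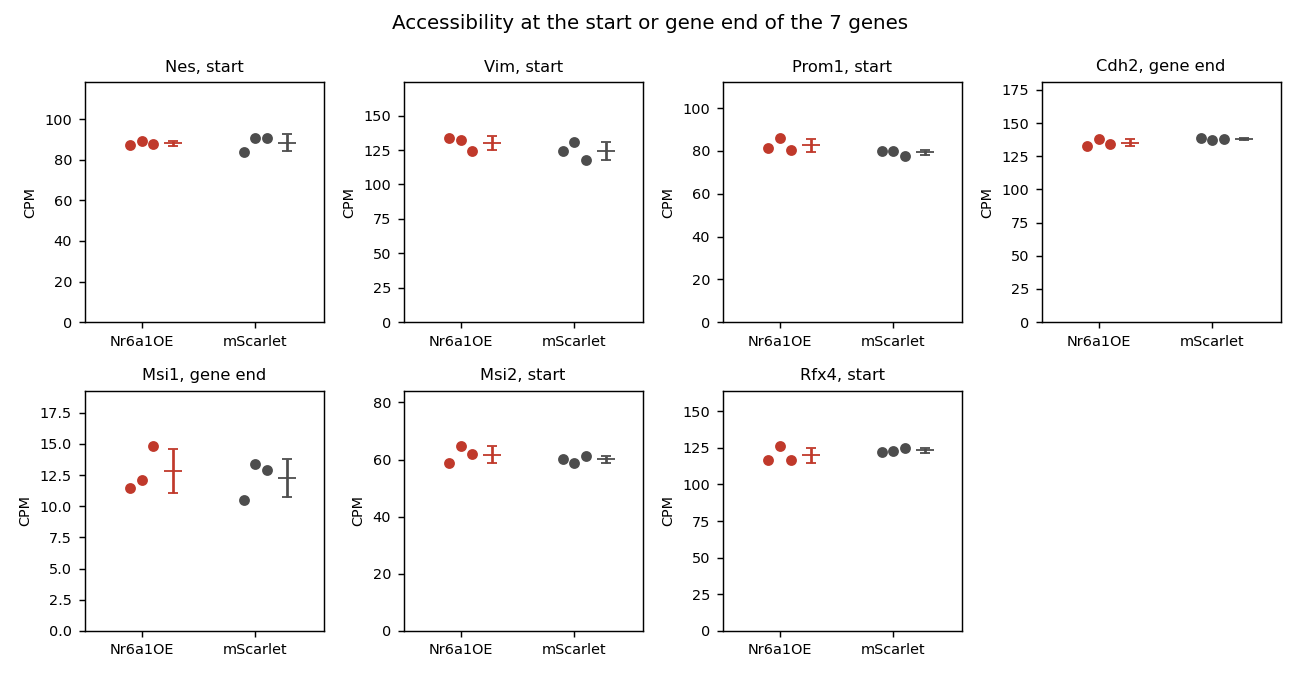
Each panel gives CPM at the interval over the start of Nes, Vim, Prom1, Msi2 or Rfx4, or over a gene end of Cdh2 or Msi1; points are libraries, bars are the mean ± SD of 3, and axes start at 0. Both groups lie close together in every panel, with Cdh2 at 133 to 138 CPM in Nr6a1OE and 137 to 139 CPM in mScarlet, and none of the 7 intervals passed the test. The gene ends of Cdh2 and Msi1 need not be promoters.

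Musashi-1 is an RNA-binding protein of neural stem cells, and its gene (chromosome 5, 115359059 to 115455698) held 10 intervals along its body and 1 beyond an end. The most open, 115436020 to 115437378, had 62.5 CPM per kb, above 98.3% of tested intervals, and was more open per length than any other interval of the 7 genes. It held 81.1, 88.2 and 82.4 CPM in Nr6a1OE 1, 2 and 3, against 88.4, 84.9 and 84.3 CPM in mScarlet 1, 2 and 3, overlapping groups with a log2 fold change of -0.035 (95% confidence interval -0.13 to 0.062, edgeR adjusted p = 0.842). The interval over the gene end at 115359059 was weaker, with 12.8 ± 1.72 CPM in Nr6a1OE and 12.3 ± 1.52 CPM in mScarlet (SD, n = 3 each). The interval nearest to the other end held 10.3 ± 1.40 CPM in Nr6a1OE and 9.58 ± 0.586 CPM in mScarlet (SD, n = 3 each). No RefSeq start was at hand for Msi1, so neither end need be its promoter.

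At Msi1 all 11 log2 fold changes lay between -0.10 and 0.20, and all 11 confidence intervals lay within 0.5 of 0. The interval with the largest of them, 115441556 to 115441929, held 11.1, 11.7 and 10.3 CPM in Nr6a1OE 1, 2 and 3, against 9.72, 8.74 and 10.2 CPM in mScarlet 1, 2 and 3. The groups were apart only just, and its value of 0.20 did not pass (edgeR adjusted p = 0.588). The interval at 115397929, with 55.8 CPM in Nr6a1OE and 60.0 CPM in mScarlet, was the opposite case, lower in every Nr6a1OE library at -0.10 on the log2 scale without passing (edgeR adjusted p = 0.484).

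Musashi-2, the second Musashi protein and also a regulator of blood stem cells, had the most intervals, 36 over a gene of 378.9 kb (chromosome 11, 88339382 to 88718306). At its start 58.7, 64.6 and 61.8 CPM were measured in Nr6a1OE 1, 2 and 3, against 60.1, 58.9 and 61.2 CPM in mScarlet 1, 2 and 3 (log2 fold change 0.038, 95% confidence interval -0.075 to 0.15, edgeR adjusted p = 0.857). The highest interval, 88582454 to 88583737, lay 135.1 kb into the gene and held 71.0, 73.3 and 66.5 CPM in Nr6a1OE 1, 2 and 3, against 70.5, 71.0 and 72.7 CPM in mScarlet 1, 2 and 3. It exceeded the start of the gene per length, with 55.2 beside 40.6 CPM per kb. Among the intervals with at least 50 fragments, the largest log2 fold change was 0.30, at 88524844 to 88526250, with 8.58 ± 1.98 CPM in Nr6a1OE and 7.07 ± 1.15 CPM in mScarlet (SD, n = 3 each), overlapping groups and an edgeR adjusted p of 0.421.

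None of the 36 Msi2 intervals reached an unadjusted edgeR p under 0.05, and DESeq2 called 0. At that unadjusted threshold 6.87% of all tested intervals were lower and 5.73% higher. The Msi2 log2 fold changes ran from -0.42 to 0.33 with a median of 0.038. Of the 36, 21 were above 0, or 58.3%, beside 50.8% of all tested intervals. The intervals of chromosome 11 had a median of 0.058 as a whole, so the Msi2 median lay no higher than that of its chromosome. At 18 of the 36 intervals the mean was under 50 fragments.

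Rfx4 (chromosome 10, 84756036 to 84906538) was open most strongly at its first start, where 117, 126 and 117 CPM were measured in Nr6a1OE 1, 2 and 3, against 122, 123 and 125 CPM in mScarlet 1, 2 and 3. The groups overlapped (log2 fold change -0.037, 95% confidence interval -0.12 to 0.045, edgeR adjusted p = 0.785). The largest log2 fold change among intervals with at least 50 fragments lay 4.3 kb beyond the far end of the gene, at 84909974 to 84911773. It held 19.7, 18.9 and 18.9 CPM in Nr6a1OE 1, 2 and 3, against 15.5, 14.0 and 17.2 CPM in mScarlet 1, 2 and 3. The groups did not overlap, and the value of 0.29 (SE 0.11) had an unadjusted edgeR p of 0.00590 but did not pass (edgeR adjusted p = 0.150). The inner start of the gene was covered by no interval.

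Set side by side per length, the starts of 4 genes and the gene end of Cdh2 were alike in level. In CPM per kb, Cdh2 had 43.1 ± 0.883 in Nr6a1OE and 44.0 ± 0.314 in mScarlet, and Rfx4 had 42.8 ± 1.93 in Nr6a1OE and 43.8 ± 0.634 in mScarlet (SD, n = 3 each). Prom1 followed with 43.3 ± 1.59 in Nr6a1OE and 41.6 ± 0.697 in mScarlet (SD, n = 3 each). Msi2 had 41.2 ± 1.97 in Nr6a1OE and 40.1 ± 0.779 in mScarlet, and Vim 41.0 ± 1.6 in Nr6a1OE and 39.3 ± 2.04 in mScarlet (SD, n = 3 each). The ranges over the 6 libraries of each of these neighbours in the order overlapped. The Nes start was lower, 33.6 to 36.5 CPM per kb over the 6 libraries against 37.4 to 42.2 for Vim. The Msi1 gene end was lowest at 12.5 to 17.6, but 7 other Msi1 intervals were more open per length. No RefSeq start was at hand for Msi1 or Cdh2, so their gene ends need not be promoters.

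The fragments of all intervals of a gene were also summed, and the sums were tested with edgeR over the 16490 genes that could be tested. Such a sum can move through a single interval. The total fell at 1 of the 7 genes, Nes, beside 1.06% of all genes, and rose at 0 of 7, beside 0.867% of all genes, and in either direction 1.92% of all genes were called. DESeq2 called 0 of the 7, but it gave no adjusted p for the Vim and Prom1 totals. Over all genes it called 13 lower and 4 higher. At an unadjusted edgeR p under 0.05, 2 of 7 were lower, Nes and Cdh2, beside 6.58% of all genes, and 0 higher, beside 6.38%. The groups did not overlap at 3 of 7, beside 16.9% of all genes, with Nes and Cdh2 lower, beside 8.63%, and Prom1 higher, beside 8.25%. The Nes total was 128, 132 and 135 CPM in Nr6a1OE 1, 2 and 3, against 145, 149 and 143 CPM in mScarlet 1, 2 and 3, where CPM is relative to the summed counts of all genes. No Nr6a1OE total reached an mScarlet total, and the log2 difference was -0.14 (SE 0.038, edgeR adjusted p = 0.0144). This total includes the called inner interval, so it is not a separate result. The Nes start and the interval beyond the far end had log2 fold changes of -0.006 and -0.033, so the locus did not fall as a whole. The call was lost without Nr6a1OE 1, Nr6a1OE 2 or mScarlet 2 (edgeR adjusted p = 0.142, 0.0572 and 0.0796), in DESeq2 (adjusted p = 0.114) and with the coefficient of variation at 10% (edgeR adjusted p = 1).

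The Cdh2 total was 250, 256 and 237 CPM in Nr6a1OE 1, 2 and 3, against 257, 256 and 270 CPM in mScarlet 1, 2 and 3, a log2 difference of -0.081 (edgeR adjusted p = 0.132). The totals of the other 5 genes had log2 fold changes of 0.019 for Rfx4, 0.039 for Msi1, 0.039 for Msi2, 0.073 for Vim and 0.074 for Prom1. None of these passed, and their confidence intervals lay between -0.041 and 0.17.

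**Figure D4:**
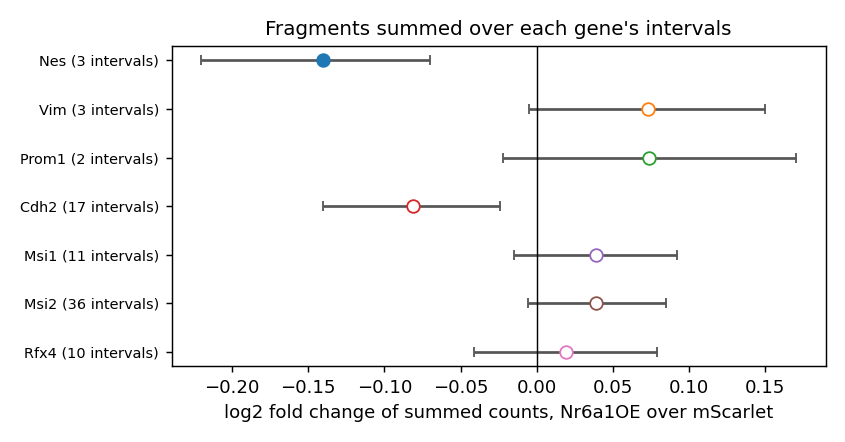
The horizontal axis gives the log2 fold change, Nr6a1OE over mScarlet, of the fragments summed over each gene's intervals, with 95% confidence intervals; the filled point passed the edgeR test over all genes. Nes at -0.14 is the filled point, Cdh2 lies at -0.081 and the other 5 genes lie between 0.019 and 0.074.

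Genes of the same structures were read in 5 further lists. Of 50 intervals at 13 other intermediate filament and lamin genes, edgeR called 0 and DESeq2 0, with 3 higher and 3 lower at an unadjusted edgeR p under 0.05 and a median log2 fold change of 0.031. The total of 1 of the 13 rose, beside 0.867% of all genes, and 0 fell. The raised total was that of the neurofilament gene Nefh (0.15, edgeR adjusted p = 0.0156). It was lost without Nr6a1OE 1, Nr6a1OE 3 or mScarlet 3 (highest edgeR adjusted p = 0.187). At 14 apical junction and polarity genes, accessibility fell at 2 of 134 intervals and rose at 0 (median -0.002, with 9 higher and 11 lower at an unadjusted edgeR p under 0.05). DESeq2 called 1 of the 134, the lowered interval near Pard3, and 0 higher. The 2 lowered intervals lay near Cdh1, the epithelial cadherin (-0.82, edgeR adjusted p = 0.0153), and Pard3, a polarity scaffold (-1.50, 278.6 kb from the gene, edgeR adjusted p = 2.83e-14). The Cdh1 call was lost without Nr6a1OE 1, Nr6a1OE 3, mScarlet 2 or mScarlet 3 (highest edgeR adjusted p = 0.132).

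Among 10 Rfx family and cilium genes 0 of 28 intervals were called by edgeR and 0 by DESeq2 (median -0.043, 2 higher and 2 lower at an unadjusted edgeR p under 0.05). For the Musashi targets Numb and Numbl with Prom2 the count was 0 of 8 by either tool (median 0.048, 0 at an unadjusted edgeR p under 0.05). At 14 other progenitor genes accessibility fell at 6 of 140 intervals and rose at 1 (median -0.011, with 6 higher and 18 lower at an unadjusted edgeR p under 0.05). Their totals fell at 3 of 14 genes, beside 1.06% of all genes, and rose at 0. At an unadjusted edgeR p under 0.05, 1 total was higher. DESeq2 called 0 of the 14 totals but gave no adjusted p for Ptprz1. The 3 lowered totals were those of Slc1a3 (-0.14, edgeR adjusted p = 0.0158), Ptprz1 (-0.15, edgeR adjusted p = 0.0159) and Nkx6-1 (-0.11, edgeR adjusted p = 0.00859). Slc1a3 was lost without Nr6a1OE 1, Nr6a1OE 3 or mScarlet 3 (highest edgeR adjusted p = 0.246), Nkx6-1 without Nr6a1OE 1, Nr6a1OE 2 or mScarlet 2 (0.142), and Ptprz1 without Nr6a1OE 2, mScarlet 2 or mScarlet 3 (highest edgeR adjusted p = 0.22). The lowered intervals included 1 lying 135.0 kb from Nkx6-1, which encodes a ventral progenitor factor (-0.45, SE 0.076, edgeR adjusted p = 2.06e-06), and another 41.0 kb from Ptprz1, a receptor phosphatase of radial glia (-0.83, SE 0.16, edgeR adjusted p = 1.33e-04). Neither was lost when any 1 library was left out, and DESeq2 called Nkx6-1 (adjusted p = 0.0199) but not Ptprz1 (adjusted p = 0.0961). The other 4 lowered intervals lay near Slc1a3 (-0.48) and Sox2 (-0.72) and inside Notch1 (-1.38) and Ptprz1 (-0.56), and the raised interval near Pax6 (1.12). Each of these 5 was lost in 3 or 4 of the 6 fits without 1 library (highest edgeR adjusted p 0.122 to 0.203), and every library was among those that lost a call. Each list is to be read beside the 1.26% lowered and 0.469% raised over all intervals with edgeR. Its DESeq2 interval calls are to be read beside the 97 lowered and 3 raised over all intervals with that tool. Its totals are to be read beside the 1.06% lowered and 0.867% raised over all genes. At an unadjusted edgeR p under 0.05, 6.87% of all intervals were lower and 5.73% higher. Of all gene totals, 6.58% were lower and 6.38% higher at that threshold.

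Alongside the lowered Nes and Cdh2 intervals, the totals of 2 of 7 post-mitotic neuron markers were lower in Nr6a1OE, beside 1.06% of all genes. These were Elavl4 (-0.18, edgeR adjusted p = 0.00228) and Dcx (-0.30, edgeR adjusted p = 0.0303), and the median over the 7 was -0.068. Elavl4 was lost without Nr6a1OE 2 (edgeR adjusted p = 0.0619) and Dcx without any library but mScarlet 1 (highest edgeR adjusted p = 0.225). At an unadjusted edgeR p under 0.05, 2 of the 7 neuron totals were lower and 1 higher, beside 6.58% and 6.38% of all genes. DESeq2 called 0 of these totals but gave no adjusted p for Elavl4 or Dcx. Of the neural progenitor markers, the total of 1 of 7 was lower, beside the same 1.06%. That was Nkx6-1 (-0.11, edgeR adjusted p = 0.00859, lost without Nr6a1OE 1, Nr6a1OE 2 or mScarlet 2, highest edgeR adjusted p = 0.142). Of these 7 progenitor totals 1 was lower and 1 higher at an unadjusted edgeR p under 0.05, and DESeq2 called 0. At starts of neural crest markers, 2 of 2 open, the sum was 42.8 to 46.9 CPM in Nr6a1OE and 46.0 to 50.7 CPM in mScarlet, while the median log2 fold change of the totals of the 3 crest markers was 0.12. Of these totals edgeR called 0 and DESeq2 0, with 2 higher and 0 lower at an unadjusted edgeR p under 0.05. Over all genes those unadjusted shares were 6.38% higher and 6.58% lower. At Foxa2 the start held 36.1 to 37.0 CPM in Nr6a1OE and 36.1 to 38.2 CPM in mScarlet. Foxa2 was the only 1 of the 3 endoderm list genes with a RefSeq start in the sequence table. Its open start alone does not identify endoderm cells. At the endothelial marker Kdr the start held 37.0 to 40.6 CPM in Nr6a1OE and 39.7 to 41.7 CPM in mScarlet. The starts of Gata1 and of the somitic marker Tbx6 lay in no interval. Among the intervals of these marker lists outside the progenitor list, 1 fell inside Elavl4 (-0.37), 1 inside Kdr (-0.57) and 1 near Foxa2 (-0.95), each lost in at least 4 of the 6 fits without 1 library (highest edgeR adjusted p 0.138 to 0.353). Whether the cell make-up of the groups differed, and any part of it in the Nes and Cdh2 results, was not tested.

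**Figure D5:**
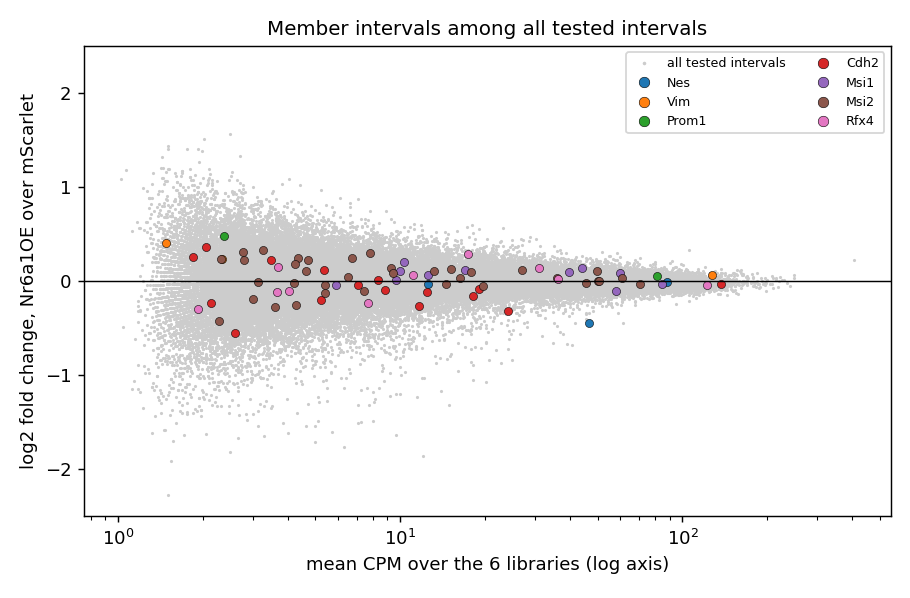
Grey points are all 51637 tested intervals and coloured points the 81 of the 7 genes; the horizontal axis is mean CPM over the 6 libraries on a log scale and the vertical axis the log2 fold change of Nr6a1OE over mScarlet. The inner Nes interval, at a mean of 46.5 CPM and -0.45, lies near the lower edge of the intervals of its level, while the 6 start and gene end intervals at 60.9 to 137 CPM lie within 0.063 of 0.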

How the data were processed

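Fragments in consensus intervals were counted by the authors with featureCounts 2.0.1, per the file headers, as read pairs, for every interval that held at least 0.2 of the fragment; the deposited counts are raw. The build was mm10, per the submitters' processing notes. The aligner, peak caller, duplicate filter and Tn5 shift were not given in the sources used here. Neighbouring intervals can share fragments.

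Gene positions and promoter windows came from RefSeq tables of GRCm38.p6 (21896 protein-coding genes; 5 of the 7 genes matched in the promoter table). Intervals were filtered with filterByExpr (586 of 52223 removed), scaled by TMM and tested with edgeR 4.0.16 (glmQLFit, R 4.3.3) without covariates, with Benjamini-Hochberg adjustment over all 51637 intervals or all 16490 gene totals. Each SE is the absolute log2 fold change over the square root of F, and CPM uses TMM-scaled library sizes. DESeq2 1.42.0 was an alternative. Scripts were tested on simulated data.

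For each gene, the text names every called interval, that at the start (both gene ends for Cdh2 and Msi1), the highest, and the most changed with at least 50 fragments; other intervals, and the within-locus ratios, were chosen after values were seen. Members and lists were chosen with earlier results of these data known. The labels do not say whether replicate numbers pair the libraries, and the main fit did not pair them. Nr6a1OE 1 and 3 differed by no more than counting noise over intervals of at least 100 fragments (chi-square per degree of freedom 0.999, p = 0.549) but by more over those of at least 10 (1.06, p = 1.61e-18), so each stayed 1 replicate.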

Additional observations from a re-analysis of the deposited data

How the results depend on the processing

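The 2 lowered intervals and the lowered Nes total were recomputed under each alternative. With DESeq2, 1 interval and 0 totals were lower, and with the coefficient of variation fixed at 10%, 0 intervals and 0 totals. Leaving out 1 library each gave 1 to 2 lowered intervals and 0 to 1 lowered totals. The fits without 1 library also had fewer samples, and the causes of these losses were not tested. DESeq2 size factors, no filter on low counts, loess offsets, chromosome medians removed, Nr6a1OE 1 and 3 summed, and assignment within 100 kb or to gene bodies only left 2 intervals and 1 total lower. The replicate block also gave 2 intervals and 1 total. Deviations of same-numbered libraries correlated at 0.0319, -0.0249 and -0.0297. The spread between libraries of a group was close to counting noise, so these correlations cannot show whether the numbers pair them. No alternative raised an interval or total of the 7 genes, though DESeq2 gave no adjusted p for the Vim and Prom1 totals. Over all intervals, 652 lowered and 242 raised became 97 and 3 with DESeq2, 205 and 19 at 10%, and 395 to 544 and 98 to 190 without 1 library. Over all gene totals, 174 lowered and 143 raised became 13 and 4 with DESeq2, 5 and 1 at 10%, and 83 to 164 and 59 to 142 without 1 library; chromosome medians removed gave 143 and 94. The Cdh2 interval kept its sign in all, at -0.36 to -0.28 without 1 library. Weak intervals limit the loci with many of them, since 33 of 81 averaged under 50 fragments.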
